A study of Mus musculus with 2 samples.

Results

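The heme biosynthesis genes are 9 of the 56748 genes listed for both libraries, chosen by their symbols: Alas1, Alas2, Slc25a38, Alad, Uros, Urod, Cpox, Ppox and Fech. They were read in 1 Nat10 cKO library and 1 WT library of single-cell RNA from lineage-depleted bone marrow of C57BL/6 mice. Nat10 encodes the acetyltransferase that places N4-acetylcytidine (ac4C) on RNA, and the study asked what it does in blood stem cell upkeep and differentiation. The series text names 5 mice, cells carry no mouse label, and each genotype is therefore 1 sample with no replicate check. Which Cre drives the conditional deletion, which part of Nat10 is removed, and the age and sex of the mice are not given in the sources used here. Every interval below covers counting error only, not the spread between animals.

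Heme is built from glycine and succinyl-CoA by a chain of enzymes that starts in the mitochondrion, passes through the cytosol and ends in the mitochondrion with the insertion of iron. The entry step is made by a housekeeping synthase, Alas1, in most tissues and by a separate X-linked synthase, Alas2, in red cell precursors, where most of the heme goes into haemoglobin. Slc25a38 encodes the carrier that brings glycine into the mitochondrion for that step. Defects in several of these genes are known causes of porphyria or of sideroblastic anaemia.

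The promoters of the synthases and of Cpox are shown because Alas1 was highest in the granulocyte lineage and the other pair in red cell precursors. The letters GATAA, read on both strands, are the core bound by GATA factors, and capitals mark them. Sequences are from RefSeq on GRCm38.p6, a different build from the one used for counting, and run from 250 bases before to 50 after a transcript start. Alas2 is at chrX:150547167-150547466 on the plus strand, Cpox at chr16:58669958-58670257 on the plus strand, and the more downstream of the 2 listed Alas1 starts at chr9:106247681-106247980 on the minus strand.
Alas2: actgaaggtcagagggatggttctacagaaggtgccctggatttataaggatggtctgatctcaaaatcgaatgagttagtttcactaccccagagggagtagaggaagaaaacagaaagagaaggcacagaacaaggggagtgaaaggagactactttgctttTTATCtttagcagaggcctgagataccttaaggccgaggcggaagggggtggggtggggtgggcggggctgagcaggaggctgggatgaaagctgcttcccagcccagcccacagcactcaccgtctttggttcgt
Cpox: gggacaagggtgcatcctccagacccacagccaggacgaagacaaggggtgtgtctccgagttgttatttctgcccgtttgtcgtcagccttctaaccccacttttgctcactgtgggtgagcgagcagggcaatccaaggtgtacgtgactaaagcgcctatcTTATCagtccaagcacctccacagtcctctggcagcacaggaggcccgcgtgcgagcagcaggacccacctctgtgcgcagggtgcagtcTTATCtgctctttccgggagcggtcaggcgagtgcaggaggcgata
Alas1: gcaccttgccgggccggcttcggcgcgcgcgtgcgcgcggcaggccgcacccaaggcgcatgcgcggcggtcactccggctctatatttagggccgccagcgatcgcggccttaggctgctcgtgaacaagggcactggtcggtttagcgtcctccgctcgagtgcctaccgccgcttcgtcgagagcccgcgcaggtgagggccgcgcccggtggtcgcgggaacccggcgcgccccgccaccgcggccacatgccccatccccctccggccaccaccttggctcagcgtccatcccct
GATAA occurred at 1 place in the Alas2 window, at 2 places in the Cpox window and in neither listed Alas1 window. The table holds 11 promoter windows for 8 of the members (none for Fech). Of these windows 3 held GATAA, or 27.3%, namely those of Alas2, Cpox and 1 of the 2 of Uros, beside 25.4% of all 32851 promoters of the same length. The letters CACCC, the core read by Klf1 and related factors, occurred in 7 of the 11, or 63.6%, beside 57.5% of all promoters, with 3 places in Alas2 and 4 in Cpox. Both shares are near the background. No base was shared between the 2 motifs in any of these member windows. A match describes the letters and is not a binding site.

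After filtering and removal of called doublets, 10695 cells remained in the cKO library and 11945 in the WT library, with median depths of 21450 and 18315 unique molecular identifiers (UMIs) per cell. The libraries shared 37 cell barcodes. Cells were grouped into 47 clusters without using the 9 genes, and clusters were named "-like" from marker lists, which left 9 classes with at least 100 cells in each library. Lineage depletion removes mature cells, so class shares describe what the depletion left. Erythroid progenitor-like cells were 32.8% of cKO cells and 19.9% of WT cells, and erythroblast-like cells were 6.68% of cKO cells and 9.35% of WT cells. Nat10 itself had 48.1 counts per 1e6 UMIs (CPM) in cKO and 69.5 CPM in WT erythroid progenitor-like cells, and 42.8 and 44.3 CPM in HSC/MPP-like cells. The 3′ tags outside a deleted part check nothing about the deletion.

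Alas1 and Alas2 lay in different lineages in both libraries. Alas1 was highest in GMP-like cells, at 224 CPM in cKO and 287 CPM in WT, and lowest in erythroblast-like cells, at 7.0 CPM in cKO and 9.72 CPM in WT. Monocyte-like cells came next, at 96.1 CPM in cKO and 98.3 CPM in WT. Neither interval touched that of the next class in either library. Below them, basophil/mast-like (32.9 CPM in cKO and 36.1 CPM in WT), lymphoid progenitor-like (32.5 and 32.7 CPM) and stromal/endothelial-like cells (27.6 and 47.7 CPM) had intervals that overlapped from neighbour to neighbour. HSC/MPP-like cells had 15.2 CPM in cKO and 21.9 CPM in WT.

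Alas2 was the reverse. It was highest in erythroblast-like cells, at 165 CPM in cKO (95% interval 158 to 172) and 193 CPM in WT (188 to 198), and stood at 7.71 CPM in cKO and 11.3 CPM in WT erythroid progenitor-like cells. In every other class it lay between 1.35 and 10.9 CPM, the upper end in stromal/endothelial-like cells, where the wide interval overlapped that of erythroid progenitor-like cells. There, the number of Alas2 UMIs per 1000 haemoglobin UMIs ranged from 3.79 to 6.56, beside 3.97 in cKO and 4.5 in WT erythroblast-like cells. In erythroid progenitor-like cells that number was 3.93 in cKO and 4.34 in WT, so it does not tell free RNA from expression. The source of the Alas2 UMIs outside the erythroid classes was not tested. In 4 of the 9 classes (basophil/mast-like, lymphoid progenitor-like, stromal/endothelial-like and T/NK/innate lymphoid-like) Alas2 had fewer than 50 UMIs in the 2 libraries together and was not compared.

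**Figure D1:**
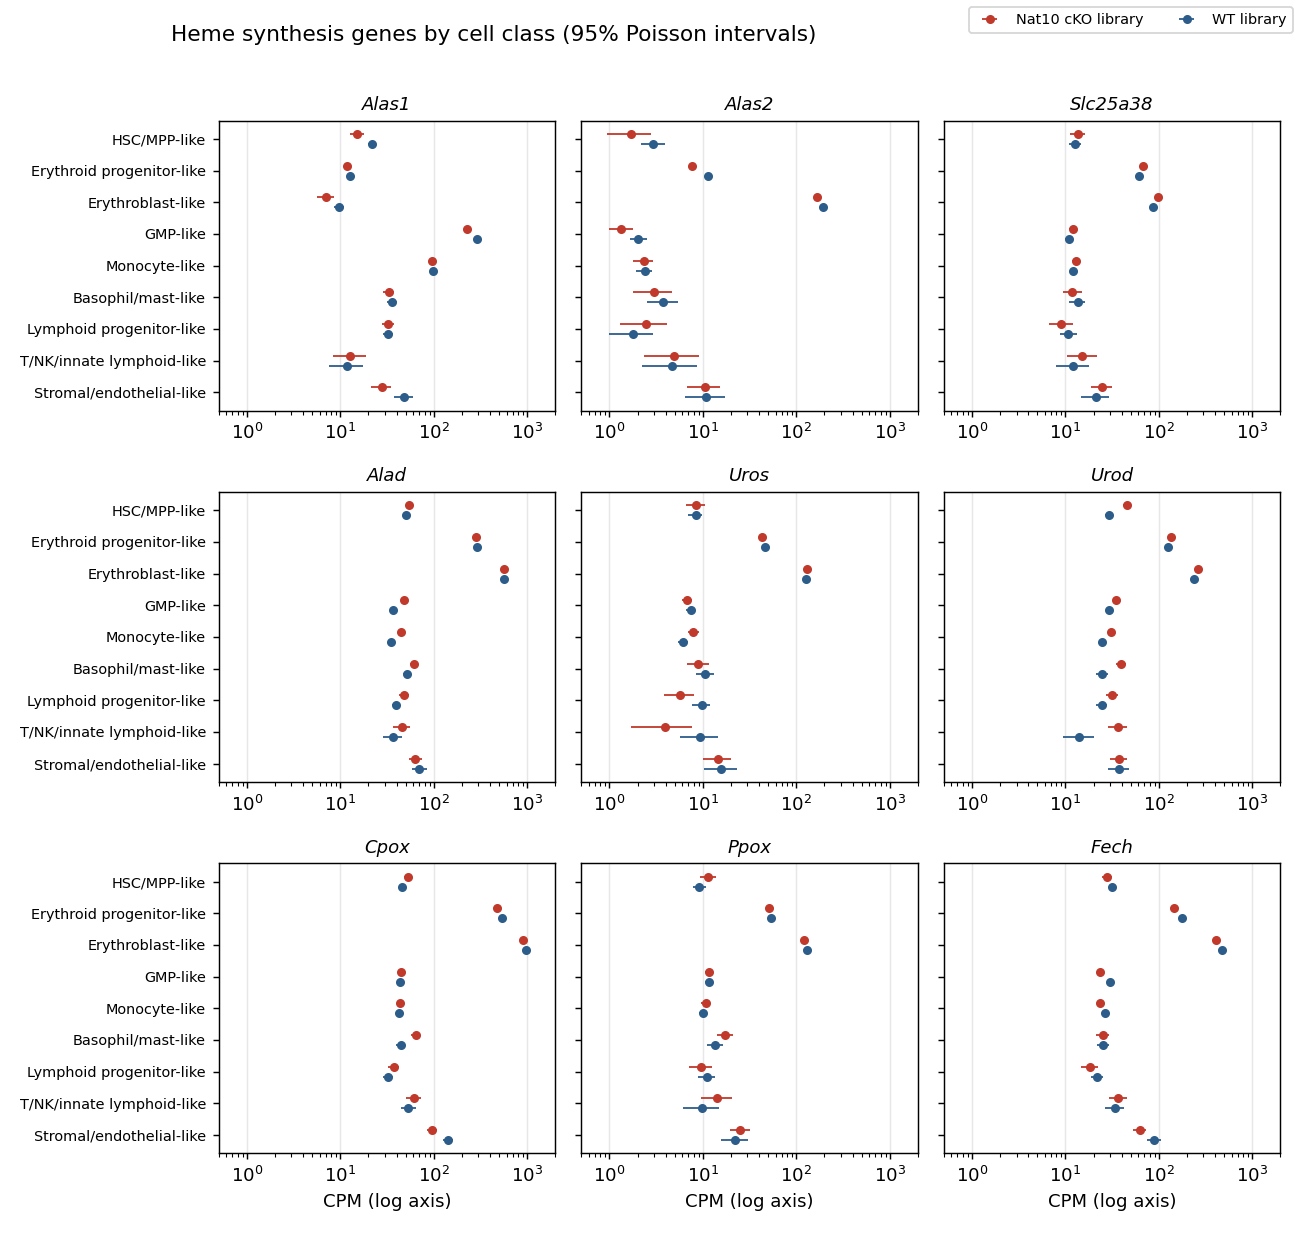
Level of each gene by cell class in CPM of summed UMIs on a log axis; red points are the Nat10 cKO library, blue points the WT library, and bars the 95% Poisson intervals. Alas1 peaks in GMP-like cells, at 224 CPM in cKO and 287 CPM in WT, while the other 8 genes peak in erythroblast-like cells.

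The carrier and the 6 enzymes after the synthases that are among the 9 genes shared the erythroid pattern. Each of the 7 was highest in erythroblast-like cells and next highest in erythroid progenitor-like cells in both libraries, with intervals that did not touch each other or those of any other class. Slc25a38, the glycine carrier, had 98.1 CPM in cKO and 86.3 CPM in WT erythroblast-like cells, against 67.5 and 60.6 CPM in erythroid progenitor-like cells. Its levels in the other classes lay between 9.01 and 24.4 CPM. The drop outside the red cell lineage was thus smaller for this carrier than for Alas2, at 10.9-fold in cKO and 8.03-fold in WT between its highest and lowest class.

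Among the cytosolic enzymes, Alad, which joins 2 molecules of aminolevulinate into porphobilinogen, had 563 CPM in cKO and 563 CPM in WT erythroblast-like cells. Uros, which closes the porphyrin ring, had 129 CPM in cKO and 126 CPM in WT, and Urod, which trims its side chains, had 262 CPM in cKO and 238 CPM in WT. Outside the erythroid classes the Alad level stayed above 34 CPM in both libraries and that of Urod above 14 CPM, so these genes were detected in every class. Uros was under the floor of 50 UMIs in T/NK/innate lymphoid-like cells.

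Of the mitochondrial enzymes, Cpox, the coproporphyrinogen oxidase, had 911 CPM in cKO and 973 CPM in WT erythroblast-like cells. Its lowest class was lymphoid progenitor-like, at 37.1 CPM in cKO and 32.3 CPM in WT. Ppox, which makes protoporphyrin, had 120 CPM in cKO and 129 CPM in WT erythroblast-like cells. Fech, the ferrochelatase that inserts iron, had 405 CPM in cKO and 473 CPM in WT erythroblast-like cells, and 147 and 178 CPM in erythroid progenitor-like cells. Relative to 1000 haemoglobin UMIs, Fech stood at 9.74 in cKO and 11 in WT erythroblast-like cells, at 74.9 and 68.2 in erythroid progenitor-like cells and at 66.2 and 81.8 in GMP-like cells. The Fech ratio thus varied between classes where that of Alas2 stayed within a narrow range.

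The erythroid cells formed 10 clusters, lettered A to J by the haemoglobin share of their UMIs, which ran from 0.0534% in A to 13.1% in J. Clusters A to G were erythroid progenitor-like and H to J erythroblast-like. Clusters D, E and J had median depths under 10000 UMIs per cell and are set apart. Haemoglobin was among the genes used for clustering, so the order of levels across clusters is a description.

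Between A and I the 8 genes other than Alas1 climbed at different rates, with B near or below A for Alad, Cpox and Urod. Alas2 stood at 2.03 CPM in cKO and 2.20 CPM in WT in A, and at 4.64 and 5.24 CPM in C. It reached 33.9 and 37.6 CPM in G, 131 and 120 CPM in H, and 323 and 333 CPM in I. Most of the Alas2 level was thus gained after G, where Cpox (741 CPM in cKO and 848 CPM in WT) already held much of its level in I (1048 and 1077 CPM).

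Cpox began high, at 390 CPM in cKO and 424 CPM in WT in A. Alad followed the same course, with 231 CPM in cKO and 228 CPM in WT in A and 596 and 622 CPM in I. Fech had 103 and 109 CPM in A and 546 and 601 CPM in I. Uros, with 24.4 and 18.3 CPM in A against 156 and 145 CPM in I, was the steepest after Alas2. Slc25a38 was the flattest of the 8, with 58.3 CPM in cKO and 48.6 CPM in WT in A and 104 and 88.1 CPM in I.

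**Figure D2:**
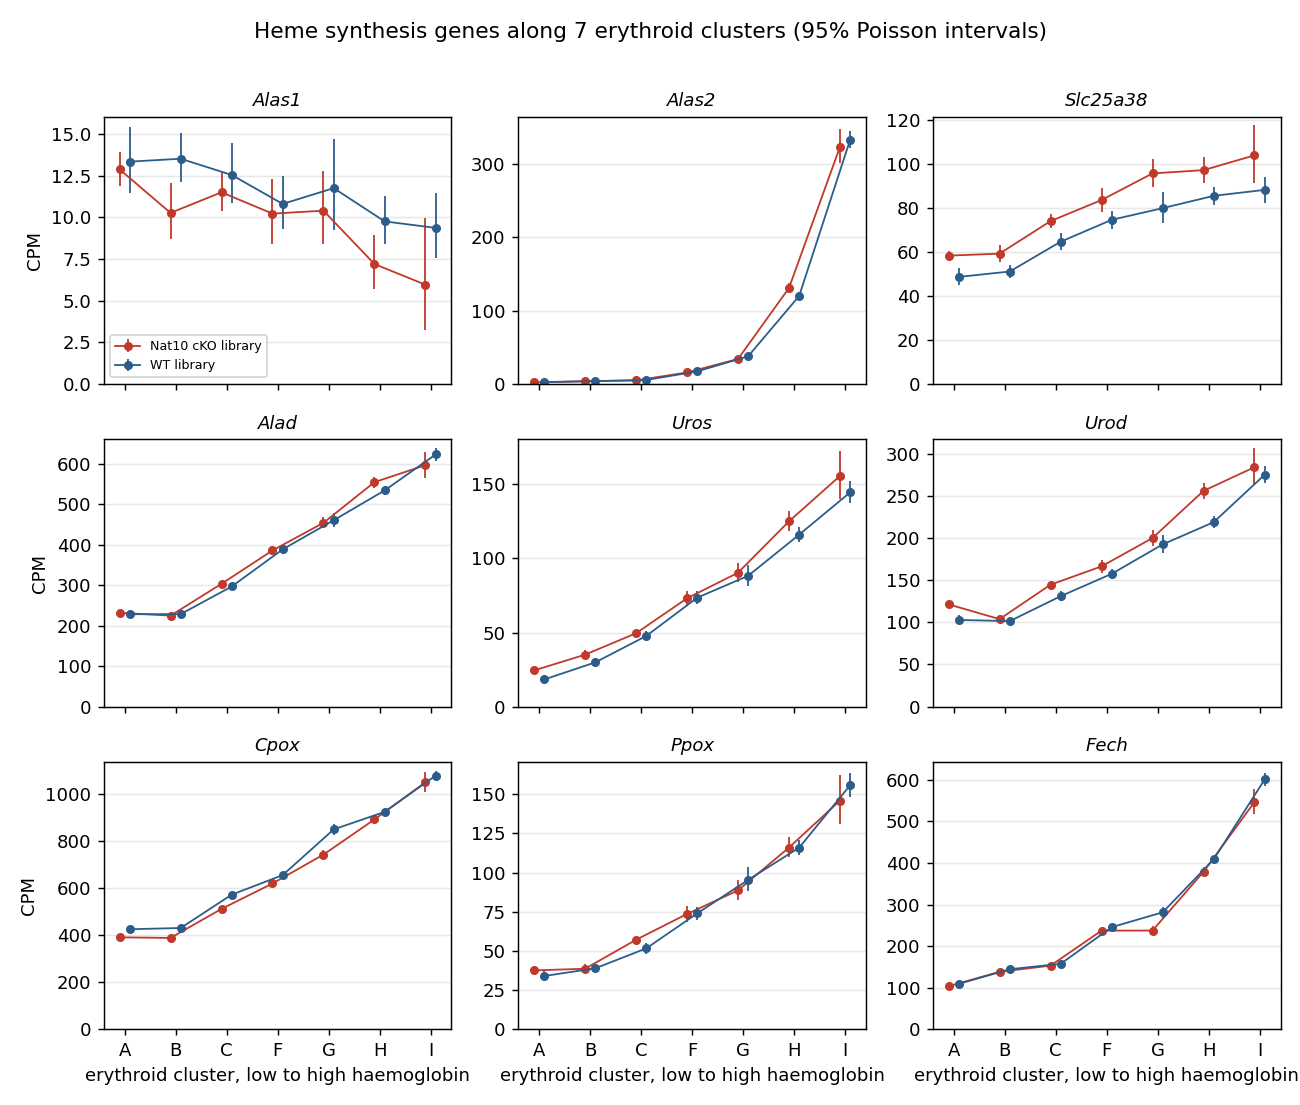
CPM of each gene along 7 erythroid clusters in order of haemoglobin share, with 95% Poisson intervals; red is the Nat10 cKO library, blue the WT library. Alas2 stays near 2 CPM in A and is above 300 CPM in I in both libraries, while Alas1 is at 5.96 CPM in cKO and 9.37 CPM in WT in I.

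Alas1 moved the other way, at 12.9 CPM in cKO and 13.4 CPM in WT in A and at 5.96 and 9.37 CPM in I. The share of Alas2 among the UMIs of both synthases, a measure that does not depend on scaling, was 13.6% in cKO and 14.2% in WT in A. It was 28.7% and 29.5% in C, 60.2% and 61.1% in F, and 76.5% and 76.2% in G. In H it was 94.8% in cKO (95% binomial interval 93.6 to 95.8) and 92.5% in WT (91.4 to 93.5), and in I 98.2% and 97.3%. Apart from H, the intervals of the 2 libraries overlapped in each of these 7 clusters. The share compares the same 2 genes at each stage and says nothing on which of them is the more abundant transcript, since 3′ capture may differ between genes.

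**Figure D3:**
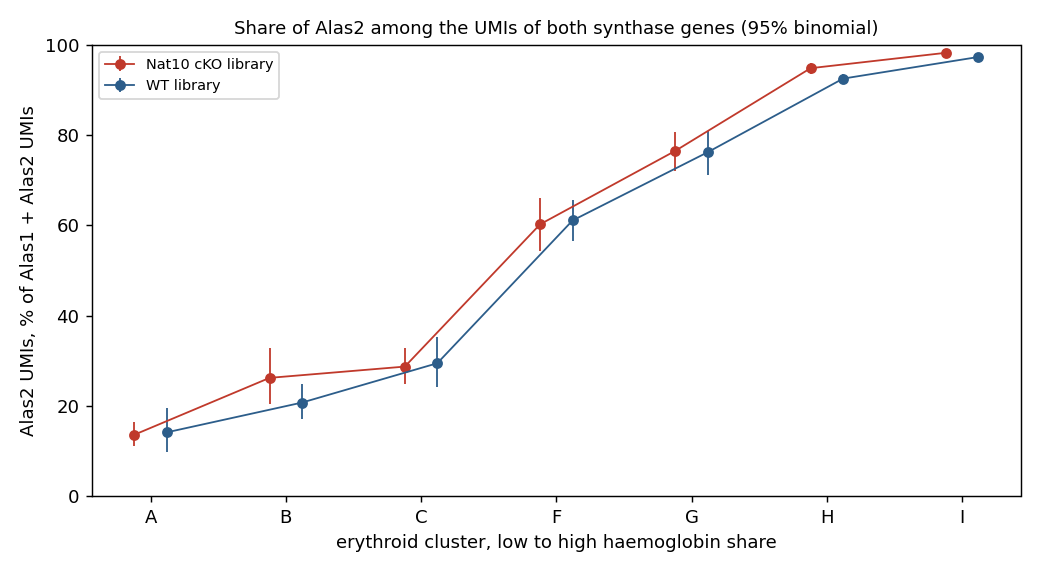
Alas2 UMIs as a percentage of the UMIs of Alas1 and Alas2 together along the same 7 clusters, with 95% binomial intervals; red is the Nat10 cKO library, blue the WT library. The share is near 14% in A and above 97% in I in both libraries.

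Cluster E departed from this order. Its cells had a median of 5.35% mitochondrial UMIs in cKO and 4.36% in WT, against at most 1.96% in clusters A to D and F to J. Alas2 there was 61.1 CPM in cKO and 91.6 CPM in WT, and Fech 300 and 364 CPM, both above their level in F. Alad (152 and 158 CPM) and Urod (46.2 and 53.4 CPM) were below their level in A. Alas2 reached 23.4 UMIs per 1000 haemoglobin UMIs in cKO and 21.9 in WT in E, against 1.67 to 6.34 in the other erythroid clusters. The part of depth and mitochondrial content in this was not tested.

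The comparison of genotypes asked whether the 9 genes differed in the cKO library within a class. The log2 ratio is that of CPM in cKO over WT with 0.5 added to each sum, with an exact conditional binomial 95% interval, and a gene is called lower at a CPM ratio of 0.8 or under and higher at the inverse of 0.8 or over. In erythroid progenitor-like cells 1 of 9 members was called lower, Alas2, against 19.0% of the 15908 genes measured, and 0 were called higher, against 7.76%. The median ratio of the 9 was -0.12, beside -0.10 over all measured genes. In erythroblast-like cells 1 of 9 was called lower, Alas1, against 13.6% of genes, and 0 higher, against 8.65%, with a median of -0.10 beside -0.05. Neither count stood above the background. With called doublets kept the count lower was 2 in erythroid progenitor-like and 3 in erythroblast-like cells, and with the members among the variable genes it was 2 and 4. Shares of all genes, here and below, are not those of alternative settings, so counts in such settings have no share beside them.

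Alas2 in erythroid progenitor-like cells had 7.71 CPM in cKO and 11.3 CPM in WT, a ratio of -0.55 (-0.69 to -0.42). The mix of clusters in the class differed between the libraries, and its part in this value was not tested. Cluster A, low in Alas2, held 28.8% of the cKO cells of the class and 12.5% of its WT cells, whereas F held 7.56% and 16.4%. With the cKO clusters weighted to the WT mix the ratio was -0.20, and without cluster A, a setting chosen after seeing the data, it was -0.19, so that 0 members were called in either setting. In erythroblast-like cells the Alas2 ratio was -0.23 (-0.30 to -0.16), and 0.03 at the WT mix, where cluster I held 15.8% of cKO and 33.7% of WT cells.

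Of the other members, Fech was lower in cKO, with a ratio of -0.27 (-0.31 to -0.24) in erythroid progenitor-like and of -0.22 (-0.27 to -0.18) in erythroblast-like cells. Cpox stood at -0.19 (-0.21 to -0.18) and -0.10 (-0.13 to -0.06). Slc25a38 was on the other side, at 0.16 (0.10 to 0.21) and 0.18 (0.09 to 0.28), as was Urod, at 0.10 (0.06 to 0.14) and 0.14 (0.08 to 0.19). Alad stood at -0.06 in erythroid progenitor-like and 0.00 in erythroblast-like cells, Uros at -0.12 and 0.04, and Ppox at -0.07 and -0.10. None of these passed the limit for a call.

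Scaling matters at this size. With trimmed-mean (TMM) scaling, which moved every ratio in erythroid progenitor-like cells up by 0.11, Alad turned to 0.05 and Ppox to 0.04, Uros and Alas1 came within 0.01 of 0, while Fech was at -0.16, Cpox at -0.08, Alas2 at -0.44, Slc25a38 at 0.27 and Urod at 0.21.

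**Figure D4:**
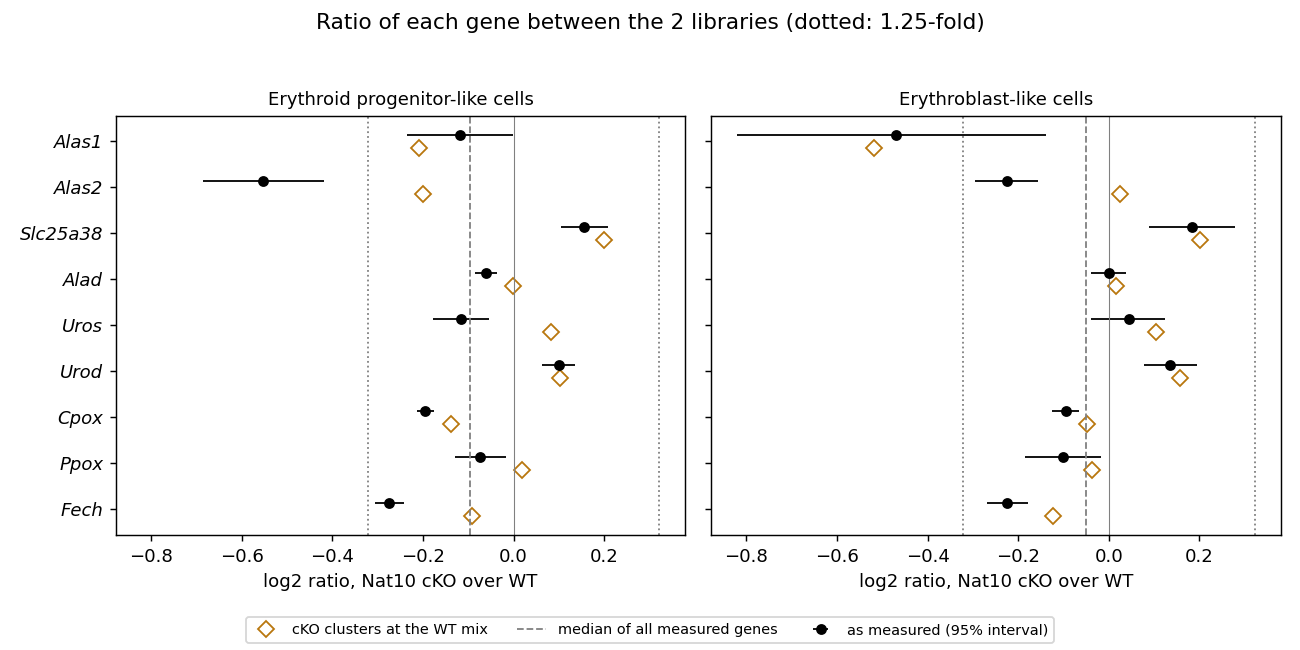
log2 ratio of Nat10 cKO over WT for each gene in erythroid progenitor-like (left) and erythroblast-like cells (right); black points with bars are the measured ratio and its 95% interval, open diamonds the ratio with cKO clusters weighted to the WT mix, dotted lines the limits for a call, and the dashed line the median of all measured genes. Alas2 moves from -0.55 to -0.20 on the left when the mix is matched.

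Within single erythroid clusters the signs of several differences recurred. Fech and Cpox each had a lower cKO level in 10 of 10 clusters, or in 8 of 10 after TMM scaling, and Alas1 in 9 of the 9 in which it was measured, or in 7. Of the 6014 genes measured in at least 9 clusters, 11.5% were lower in every cluster measured, without TMM scaling. Slc25a38 was higher in cKO in 8 of 9 clusters and Urod in 9 of 10, with either scaling. Cluster E was the exception for both. Without TMM scaling, 17.7% of genes were higher in all but at most 1 cluster, and no share is given for TMM scaling. The remaining members were split, with Alad higher in 5 of 10, Uros in 6 of 9, Ppox in 4 of 9 and Alas2 in 2 of 9. Without TMM scaling the interval lay wholly below 0 in 8 clusters for Cpox, 4 for Fech and 2 for Alas1. It lay wholly above 0 in 7 clusters for Slc25a38 and 3 for Urod. Past the limit for a call, Alas1 was lower in 4 clusters (down to -0.71), Cpox in 2 (down to -0.46), and Fech, Alas2 and Uros in 1 each. Alad and Uros were each called higher in 1. Depending on the cluster, 10.7% to 23.6% of all measured genes were called lower and 6.38% to 20.9% higher. Clusters of a library are not replicates.

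Slc25a38 gives the clearest view of such a difference. It had 58.3 CPM in cKO and 48.6 CPM in WT in cluster A (ratio 0.26, 0.14 to 0.39), 95.6 and 79.8 CPM in G (0.26, 0.10 to 0.42), and 97.1 and 85.4 CPM in H (0.18, 0.07 to 0.30). The cKO value was the higher in each. Cpox had 741 CPM in cKO and 848 CPM in WT in G (-0.19, -0.25 to -0.14) and 1048 and 1077 CPM in I (-0.04, -0.10 to 0.02). Alas2 in H went against its class, with 131 CPM in cKO and 120 CPM in WT (0.12, 0.03 to 0.22). Haemoglobin itself was 3.40% of UMIs in cKO and 2.84% in WT in H.

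Ordering erythroid cells by their own haemoglobin content in place of clusters gave ranges of under 0.1% (1763 cKO and 1018 WT cells), 0.1 to 1% (1571 and 1217), 1 to 10% (793 and 1123) and over 10% (91 and 131). Levels here are CPM of non-haemoglobin UMIs, and a range is not a cell type. Alas2 had 2.55 CPM in cKO and 2.87 CPM in WT in the lowest range, 12.3 and 17.0 CPM in the second, 134 and 157 CPM in the third, and 672 and 717 CPM in the highest. Its ratio was -0.17, -0.46, -0.22 and -0.09 in that order, and only the intervals of the 2 middle ranges lay wholly below 0. In the second range Alas2 was called lower, against 16.4% of genes. In the third Alas1 was, at -0.57 (-0.90 to -0.26), against 16.0%. In the highest, 2 of 8 measured members were called lower, against 25.0%, namely Fech and Uros (-0.40, -0.78 to -0.05). No member was called lower in the lowest range, and none was called higher in any range.

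In cluster E alone the Alas2 ratio was -0.58 (-0.91 to -0.26). It was 1 of 2 members called lower there, against 10.7% of genes, and 0 were called higher, against 20.9%. All 9 members were lower in cKO in E, as were 3262 of the 7895 genes measured. The median of the 9 was -0.25, beside 0.07 over all measured genes. Fech was lower in cKO in all 4 ranges, at -0.19, -0.23, -0.24 and -0.33, with 115 CPM in cKO and 131 CPM in WT in the lowest and 687 and 867 CPM in the highest. Alas2, Cpox and Fech were lower in all 4 ranges, as were 42.3% of the 5297 genes measured in each. Slc25a38 was higher in all 4, at 0.21, 0.16, 0.22 and 0.29, as were Urod and 22.8% of genes. Of the 7707 cells, 316 lay within 10% of the lowest limit, 188 of the next and 77 of the highest. The median depth over 10% was 1858 UMIs in cKO and 15797 in WT, so that range is the least comparable.

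The ratio between libraries went with the length of genes. In erythroid progenitor-like cells the median ratio of genes was 0.00 for spans of 3 to 10 kb, -0.05 for 10 to 30 kb and -0.15 for 30 to 100 kb, with spans from GENCODE M21 on GRCm38. The members with the longest spans are Cpox, at 47.3 kb, and Fech, at 37.3 kb, and their ratios of -0.19 and -0.27 stood 0.04 and 0.12 below the median of that range. Urod spans 4.45 kb and Ppox 5.20 kb, with ratios 0.10 above and 0.08 below the median of theirs. Slc25a38, at 14.1 kb, stood 0.21 above the median of its range, and Alas2, at 23.3 kb, 0.50 below it.

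In erythroblast-like cells the medians were 0.06 for spans of 3 to 10 kb, -0.01 for 10 to 30 kb and -0.11 for 30 to 100 kb. The distances from these were -0.45 for Alas1, -0.21 for Alas2, -0.16 for Ppox and -0.12 for Fech. They were 0.20 for Slc25a38, 0.08 for Urod, 0.06 for Uros, 0.01 for Alad and 0.01 for Cpox. The part of span in the members' ratios was not tested.

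**Figure D5:**
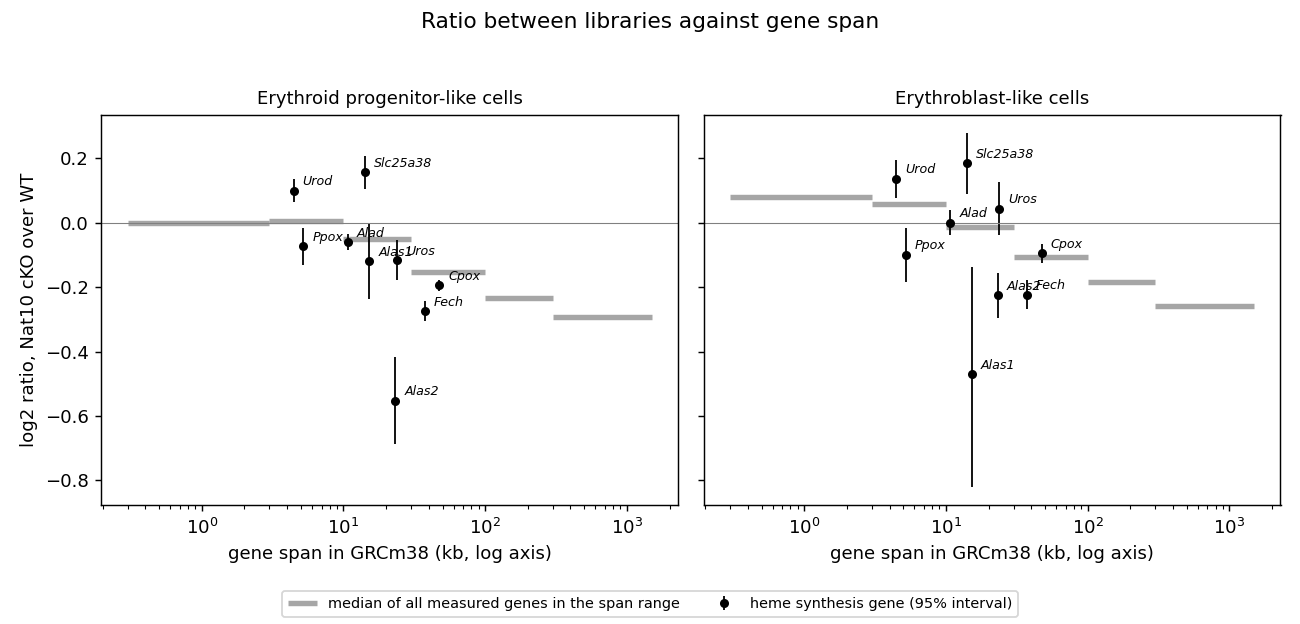
log2 ratio of Nat10 cKO over WT against gene span in kb on a log axis, in erythroid progenitor-like (left) and erythroblast-like cells (right); points with bars are the 9 genes with their 95% intervals, and grey lines the median of all measured genes in each span range. On the left, Slc25a38 stands 0.21 above and Alas2 0.50 below the line of their range.

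Outside the red cell lineage the largest gap in UMIs was that of Alas1. In GMP-like cells it had 224 CPM in cKO (219 to 230) and 287 CPM in WT (282 to 292), a ratio of -0.35 (-0.39 to -0.31). It was no longer called at the WT mix of clusters (-0.17), where 1 cluster held 5.57% of cKO and 27.2% of WT GMP-like cells, or with TMM scaling (-0.27). In monocyte-like cells it was -0.03 (-0.10 to 0.04), and -0.30 at the WT mix but 0.09 with TMM scaling. Alas1 in HSC/MPP-like cells had a ratio of -0.53 (-0.83 to -0.24), and of -0.40 at the WT mix. Most cKO cells of that class (62.9%) lay in a cluster with Trpc6 and Med12l among its leading genes and most WT cells (57.3%) in a cluster led by Mecom and Adgrl4.

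Calls went both ways in the non-erythroid classes and many turned with the processing. In GMP-like cells 3 of 9 members were called lower (Alas1, Alas2 and Fech, against 23.7% of genes) and 1 higher (Alad, against 10.4%). Alad had 47.6 CPM in cKO and 37.0 CPM in WT there, a ratio of 0.36 (0.26 to 0.46). The counts there were 1 lower and 2 higher with TMM or median-of-ratios scaling (Fech at -0.27 with TMM), 2 lower and 0 higher at the WT mix, where Alad stood at 0.30, and 5 lower and 0 higher with doublets kept.

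In monocyte-like cells 0 of 9 were called lower, against 31.2%, and 2 higher, against 12.3%, namely Alad at 0.38 (0.27 to 0.48) and Uros at 0.36 (0.10 to 0.61). Both calls ended, and 1 member was called lower, with doublets kept (Alad at 0.27, Uros at 0.12 and Alas1 at -0.53); the counts were likewise 1 lower and 0 higher with a minimum of 3000 UMIs and 1000 genes per cell. In HSC/MPP-like cells 2 were called lower (Alas1 and Alas2, against 35.4%) and 2 higher (Urod and Ppox, against 17.0%). Alas2 there rested on 15 UMIs in cKO and 47 in WT, with a ratio of -0.76 (-1.74 to 0.07). Ppox, at 0.32 (-0.06 to 0.70), was only just past the limit for a call. With totals without haemoglobin and mitochondrial UMIs 2 were lower and 1 higher. Urod had 45.6 CPM in cKO and 29.3 CPM in WT there, a ratio of 0.64 (0.44 to 0.83). With doublets kept 0 were lower and 1 higher, Urod at 0.52. The Alas2 call in HSC/MPP-like cells stood beside haemoglobin at 0.0420% of UMIs in cKO and 0.0614% in WT, with 3 of 4 haemoglobin genes called lower and a median of -0.72.

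Urod was higher in cKO in 8 of the 9 classes, as 21.2% of the 6882 genes measured in all 9 were in at least 8, and stood at -0.01 in stromal/endothelial-like cells. In T/NK/innate lymphoid-like cells it had 74 UMIs in cKO and 30 in WT, or 36.3 and 14.1 CPM. There 2 of 7 measured members were called higher (Urod and Ppox, against 25.2%) and 0 lower, against 13.2%. The interval of the Ppox ratio included 0. Erythroid RNA differed between libraries in these classes as well, in both directions. The 12 erythroid progenitor markers summed to 625 CPM in cKO and 453 CPM in WT T/NK/innate lymphoid-like cells (2 of 12 lower), 255 and 204 CPM in GMP-like cells (3 lower), 234 and 195 CPM in monocyte-like cells (1 lower) and 664 and 607 CPM in HSC/MPP-like cells (7 lower). The 10 erythroblast markers summed to 820 and 913 CPM in T/NK/innate lymphoid-like cells (6 of 10 lower), 378 and 396 CPM in GMP-like cells (6 lower), 424 and 421 CPM in monocyte-like cells (4 lower) and 453 and 654 CPM in HSC/MPP-like cells (8 lower). None of these markers was at 0 in either library. Their part in the members' ratios was not tested.

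In the remaining classes, basophil/mast-like cells had 0 of 8 members called lower (18.9% of genes) and 3 higher (15.6%), which were Cpox, Ppox and Urod. For Ppox the interval included 0. Erythroid RNA was higher there too, with 4 of 4 haemoglobin genes called higher (median 0.36) and erythroid progenitor markers at 676 CPM in cKO and 462 CPM in WT (1 of 12 lower). Lymphoid progenitor-like cells had 1 of 8 lower, Uros (25.7%), and 1 higher, Urod (12.5%). Stromal/endothelial-like cells had 3 of 8 lower, Alas1, Cpox and Fech (17.5%), and 0 higher (18.7%), at median depths of only 3883 UMIs in cKO and 2359 in WT. Cpox there had 95.7 CPM in cKO and 142 CPM in WT, a ratio of -0.57 (-0.83 to -0.30). Erythroid progenitor markers stood at 1137 CPM in cKO and 1350.0 CPM in WT (9 of 12 lower), with 2 of 4 haemoglobin genes called lower (median -0.29). With a minimum of 3000 UMIs and 1000 genes per cell, 5 of 7 members were called lower and 1 higher. The shares of all genes above are not those of that setting, for which none is given. The part of erythroid RNA in the ratios of either class was not tested.

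Summed over all kept cells, where the mix of classes enters, Alas2 had 14.4 CPM in cKO and 27.6 CPM in WT (-0.93) and Alas1 52.2 and 79.1 CPM (-0.60). These 2 of 9 members were called lower, against 27.5% of genes, and 0 higher, against 13.8%. With all clusters at the WT mix the ratios were -0.02 for Alas2 and -0.21 for Alas1. In such a sum, fewer cells of a type and less RNA per cell cannot be told apart.

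As shares of cells, each cell thinned to 2000 UMIs and shallower cells left out, Cpox was found in 84.3% of cKO and 84.2% of WT erythroblast-like cells, and in 58.2% and 62.7% of erythroid progenitor-like cells. Alas2 was found in 27.7% (cKO) and 32.4% (WT) of erythroblast-like and in 2.17% and 3.22% of erythroid progenitor-like cells. Unthinned, its shares were 76.8% and 85.1% of erythroblast-like cells and 17.2% and 22.1% of erythroid progenitor-like cells. In GMP-like cells, set beside them for comparison, thinned Alas2 shares were 0.567% in cKO and 0.624% in WT at median depths of 31541 and 34946 UMIs. Alas1 was found in 31.4% of cKO and 40.6% of WT GMP-like cells, the same order as its CPM.

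Across the 18 sums of the 9 classes in the 2 libraries, the genes nearest to the members by Pearson r of log2(CPM + 1), among 7412 genes, followed these lineages. Alas1 was nearest to Prtn3 (0.96), Elane and Prss57, granule protein genes of neutrophil precursors. Alas2 was nearest to Hbb-bs (0.99), Hba-a2 and Hba-a1. Cpox was nearest to Slc38a5, Rhag and Nxpe2 (0.99 each), Fech to Btnl10, Dmtn and Epb42, and Slc25a38 to Cpox itself, Tspan33 and Nudt9. Alad had Ubac1 and Tbccd1 among its 3 nearest, Urod had Txnrd2, Ubac1 and Prdx2, and Uros had Tbccd1, 5430401H09Rik and Arl6ip6.

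Alas1 had r between -0.60 and -0.52 with the other 8 members, and 0.94 with the neutrophil granule gene Mpo. Slc25a38, Alad, Uros, Urod, Cpox, Ppox and Fech had r between 0.91 and 0.99 among themselves. The 18 points share libraries and classes, erythroid cells set most of the range, and the values are a description only.

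Genes that work beside the pathway were grouped in 5 lists. Of 17 porphyrin and mitochondrial partners, 3 were called lower and 0 higher in erythroid progenitor-like cells, with a median of 0.07, beside 19.0% of all genes called lower and 7.76% higher. Slc25a37 (mitoferrin, the mitochondrial iron importer) had 44.8 CPM in cKO and 65.9 CPM in WT (-0.56), and Abcb10, its partner in the inner membrane, 124 and 164 CPM (-0.40). Suclg1, a subunit of succinyl-CoA ligase, was at 0.31 and Tmem14c, a protoporphyrin transporter, at 0.29, with 787 and 644 CPM. In erythroblast-like cells 0 of 17 were lower and 1 higher, Tmem14c at 0.36, beside 13.6% of all genes called lower and 8.65% higher. Slc25a37 was at -0.24, Abcb6 at -0.30 and Tspo at 0.24.

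Of 7 genes for iron uptake and control, 0 were called in either direction in erythroid progenitor-like cells, with a median of -0.10. Of all genes there, 19.0% were called lower and 7.76% higher. Tfrc, the transferrin receptor, had 347 CPM in cKO and 413 CPM in WT (-0.25) and Ireb2, an iron regulatory protein, was at -0.29, while the ferritin genes Ftl1 and Fth1 were at 0.32 and 0.18. In erythroblast-like cells 1 of 7 was called higher, Ftl1 at 0.33, against 8.65% of genes. Tfrc (-0.18), Slc11a2 (-0.20) and Fth1 (0.22) were not called.

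Of 9 genes for heme breakdown, export and sensing, 2 were called lower in erythroid progenitor-like cells, Hmox1 (-1.98) and Bach1 (-0.35), with a median of -0.02, again beside 19.0% of all genes. Hmox1, heme oxygenase, had only 0.32 CPM in cKO and 1.27 CPM in WT. The summed level of 8 macrophage markers in the same cells was 1.39 CPM in cKO and 7.85 CPM in WT, lower for 8 of the 8, and 1 of them was at 0 in cKO; their part in the Hmox1 value was not tested. Blvrb, a biliverdin reductase, was at 0.31 and Blvra at 0.19. In erythroblast-like cells, where 8 were measured, 1 was called higher, Blvrb at 0.33, against 8.65% of genes. Bach1 (-0.13), Eif2ak1 (-0.12) and Blvra (0.23) were not called.

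All 4 measured haemoglobin genes were lower in cKO erythroid progenitor-like cells and 3 were called, against 19.0% of genes: Hbb-bt (-0.55), Hba-a1 (-0.44) and Hbb-bs (-0.34), with Hba-a2 at -0.17. Within clusters the picture differed. Cluster A holds more of the cKO than of the WT cells of the class. There 3 of 4 were called higher (median 0.40), against 6.53% of genes. In B and F 1 was called lower, against 10.7% and 11.9%, and in E 4 were (median -0.70), against 10.7%. In C, D and G 0 were called, where 15.5%, 23.6% and 18.7% of genes were called lower. The shares called higher there were 6.74%, 11.0% and 6.38%. In erythroblast-like cells 0 haemoglobin genes were called, and these ranged from -0.11 for Hba-a1 to 0.01 for Hbb-bs. Of 8 erythroid transcription factor genes, 1 was called lower in erythroid progenitor-like cells, Tal1 (-0.38), against 19.0% of genes. Gata2 was the 1 called higher (0.39), against 7.76%, with Nfe2 at -0.29 and Klf1 at 0.13. In erythroblast-like cells only Gata2 was called, higher (0.36, -0.25 to 0.93), against 8.65% of genes, with Nfe2 at -0.27, Tal1 at -0.25 and Gata1 at 0.10.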

How the data were processed

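Single-cell RNA libraries were made by 3′ capture of lineage-depleted marrow, per the labels' protocols. The deposited values are raw UMI counts per gene and barcode; Cell Ranger 7.1.0 and mm39 are named in the submitters' processing notes, and how cells were called is not stated there. The 13479 cKO and 15848 WT barcodes held 271499717 and 288303275 UMIs. Kept barcodes (11239 and 12537) had 1000 or more UMIs, 500 or more genes and no more than 10% mitochondrial UMIs. Scrublet in scanpy 1.11.5, run per library, called 544 and 592 doublets (4.84% and 4.72%), which were removed. The cells were clustered on 2000 variable genes without the 9 members (30 components, 15 neighbours, Leiden resolution 1.5), and a cluster was named from the class with most markers among its 10 leading genes and at least 3 detected or, where no marker led (erythroid clusters C and E and 1 basophil/mast-like cluster), from the list with the largest share detected, at least 40%, unless its cells were shallow; 8 of 47 clusters stayed unnamed.

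UMIs were summed per library and class, since cells are not replicates. With 1 library per genotype no test was made. Intervals are exact Poisson, binomial or conditional binomial at 95%. Only the conditional binomial interval of the ratio was checked on simulated data. These were drawn with the Poisson counting error it assumes, so the check covers the calculation alone. A gene counted as measured at 50 or more UMIs over the 2 libraries. TMM scaling used edgeR 4.0.16 in R 4.3.3; it served only as an alternative. Other steps used Python 3.11.15, numpy 2.4.6, pandas 2.3.3, scipy 1.17.1, anndata 0.12.19, igraph 0.11.9 and scikit-learn 1.9.0. Other alternatives were median-of-ratios factors, totals without haemoglobin and mitochondrial UMIs, other floors, filters and resolutions, doublets kept, members among the variable genes, equal weight per cell, the WT mix of clusters, 4000 UMIs per thinned cell or none, and 2 settings added after seeing the data.

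Every member was described in each class. Of each partner list, the 2 highest and 2 lowest ratios in erythroid progenitor-like and erythroblast-like cells are named, and, for likeness, the 3 genes nearest to each member with a mean of at least 20 CPM; the genes nearest to Ppox, 1 gene near Alad and 1 haemoglobin-list gene are not reported here. The genes leading clusters were named after their values were seen. The rule behind the results set apart at the end was loosened after a stricter one gave none. The members and lists were chosen with earlier results of these data known. Spans matched for 95.9% of measured genes.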

Additional observations from a re-analysis of the deposited data

Results flagged for a closer look

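For 2 of the 9 genes the ratio between libraries was called in opposite directions in different classes, with intervals that exclude 0 in both. This criterion was chosen after the values were seen: a stricter one, tried first, asked that both intervals lie wholly past the limits for a call, and 0 of the 9 genes met it. The 2 genes were picked out among 76 ratios, and with 1 library per genotype the difference between classes was not tested. Cpox had a log2 ratio of 0.53 in basophil/mast-like cells, with 63.8 CPM in cKO and 44.2 CPM in WT, and of -0.57 in stromal/endothelial-like cells, with 95.7 CPM in cKO and 142 CPM in WT. Uros had a ratio of 0.36 in monocyte-like cells, with 7.91 CPM in cKO and 6.19 CPM in WT, and of -0.77 in lymphoid progenitor-like cells, with 5.63 CPM in cKO and 9.68 CPM in WT, where it rested on 30 and 82 UMIs. With called doublets kept, Cpox stood at 0.18 in basophil/mast-like cells and Uros at 0.12 in monocyte-like cells, neither of them called.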

How the results depend on the processing

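No paired analysis was possible because each genotype had 1 library, and no replicate could be left out for the same reason. The median log2 ratio of the 9 genes in erythroid progenitor-like cells (-0.12) was -0.0028 with TMM scaling, -0.021 with median-of-ratios scaling, -0.19 with called doublets kept, -0.0014 at the WT mix of clusters and 0.036 without erythroid cluster A, a setting added after seeing the data. In erythroblast-like cells the median (-0.10) was -0.058 with TMM scaling, -0.042 with median-of-ratios scaling, -0.047 with a floor of 500 UMIs, -0.22 with doublets kept, -0.27 with the members among the variable genes, -0.15 with every cell weighted alike and 0.015 at the WT mix. The count called lower in erythroid progenitor-like cells (1) was 2 with doublets kept or the members among the variable genes, and 0 at the WT mix or without cluster A. These medians and this count kept to their value within counting error, or within 1.5 times for the count, in the other 25 recomputations. With doublets kept, which also changed the clusters, Alad in GMP-like cells turned to -0.22 and Ppox in T/NK/innate lymphoid-like cells to -0.013; the cause was not tested. Of the recomputed ratios and shares of single genes, 905 stayed within their intervals and 228 moved out of them, shares with every change of depth but 1. Leaving out the erythroid clusters of under 10000 median UMIs, also added later, moved none of the medians or the count. The UMI floor left out Alas2 in 4 classes and Uros in 1.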

Other observations

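Some of the classes with fewer than 100 cells in a library and of the clusters left without a name are given here as values. Unnamed clusters held 18.1% of cKO and 22.8% of WT cells. Eosinophil-like cells (40 in cKO and 175 in WT) held Alas1 at 152 CPM in cKO and 160 CPM in WT, in the range of the myeloid classes, and Urod at 66.0 and 18.9 CPM, from 39 and 15 UMIs. Neutrophil-like cells (32 and 34) held Alas1 at 123 and 107 CPM. Plasma-like cells (97 and 43) had 13 Alas1 UMIs in cKO and 71 in WT, or 7.27 and 63.0 CPM, with intervals of 3.87 to 12.4 and 49.2 to 79.5. Macrophage-like cells, 19 in cKO and 148 in WT, held Cpox at 226 CPM and Fech at 152 CPM in WT, beside 1.14% haemoglobin UMIs, while the cKO cells gave too few UMIs to set beside them.

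A cluster left unnamed, whose leading genes included Car1, Mt1 and Mt2 (388 cKO and 215 WT cells, median depths of 41398 and 42153 UMIs), lay below erythroid cluster A. Its haemoglobin share was 0.0331% in cKO and 0.0347% in WT. Cpox there was 223 CPM in cKO and 269 CPM in WT, Alad 178 and 175 CPM, Fech 69.2 and 79.0 CPM, Urod 89.9 and 77.1 CPM and Slc25a38 36.1 and 31.8 CPM, all under their level in cluster A. Alas2 had 1.33 and 1.43 CPM, near the level of the non-erythroid classes, and Alas1 13.2 and 13 CPM, close to cluster A. Another unnamed cluster, led by Slc22a3 and Muc13, held Gata2 at 177 CPM in cKO and 221 CPM in WT. Its Cpox level was 86.4 CPM in cKO and 88.2 CPM in WT, and that of Urod 70.8 and 47.8 CPM. The 2 largest unnamed clusters were shallow. One (292 cKO and 1364 WT cells, median depths of 2200.5 and 1547 UMIs) had Fech at a ratio of -0.79 (-1.22 to -0.40). Slc25a38 there was at 0.58 (-0.07 to 1.20). The other (664 and 603 cells, 1878 and 1449 UMIs) had Alas1 at -1.32 (-2.00 to -0.68) and Alas2 at -1.09 (-1.98 to -0.25). In it Slc25a38 was at 0.67 (0.13 to 1.26). The part of depth was not tested.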
